A study of Mus musculus with 6 samples.

Results

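Peaks of the transcription factor Arid3a were described at 10 integrin genes in mouse vascular smooth muscle cells (VSMCs): *Itga1*, *Itga5*, *Itga7*, *Itga8*, *Itga11*, *Itgav*, *Itgb1*, *Itgb3*, *Itgb5* and *Itgb8*. A peak was taken where it overlapped the mm10 body of a gene or the 10 kb on either side of it, in any of the 6 libraries. Merged over the libraries (overlap of at least 1 bp), these peaks formed 89 regions, of 79295 in the whole series. At the edge of the rule, the outermost regions taken lay 9735 bp from *Itga7* (peak in 6 libraries, median of 19.5 fragments at the summit) and 9949 bp from *Itgb1* (1 library, 8 fragments). The nearest regions left out lay 10784 bp from *Itga5* (1 library, 11 fragments) and 11000 bp from *Itga7* (6 libraries, 63 fragments).

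The assay was CUT&Tag, in which an antibody (here against Arid3a) directs a transposase to chromatin and the released fragments are sequenced. All libraries came from purchased primary mouse VSMCs. Of these, 3 were labelled si-Arid3a#1, si-Arid3a#2 and si-Arid3a#3, each under its own number of a small interfering RNA against Arid3a (siArid3a-labelled below), and 3 were labelled Negative Control (NC-labelled). The labels give the same transfection time for all 6 libraries. They describe an angiotensin II culture model of abdominal aortic aneurysm, with an exposure time in the protocol but none per library. They also do not say whether libraries came from separate cultures. A p-value here therefore reflects library-to-library spread alone, possibly of technical origin. If the 3 numbers mean different siRNAs, that spread in the siArid3a-labelled group also holds differences between siRNAs, with 1 library for each. In bulk samples fewer bound cells and less binding per cell cannot be told apart. Inside each of the 6 lists, peaks are named after the opposite group under the same number. Groups follow the sample labels. Should the names inside the lists be the true ones, each direction given here would be the opposite, while regions with a peak in all 6 libraries would stay as they are.

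Integrins are transmembrane receptors made of an alpha and a beta chain that tie the extracellular matrix to the actin cytoskeleton. The alpha chain largely sets which matrix protein is bound, and the cytoplasmic tail of the beta chain recruits talin, kindlin and, through them, kinases of the focal adhesion. In smooth muscle, integrins anchor the cell to collagen, laminin, fibronectin and elastic fibres of the vessel wall and take part in sensing stretch. The alpha V chains also bind latent TGF-beta, and release of active TGF-beta is a known function of alpha V beta 8.

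For 8 of the 10 genes the RefSeq promoter table (GRCm38.p6, the assembly of mm10) holds a window of 300 bases, from 250 bases before the start of transcription. Those of *Itga5*, *Itgav*, *Itgb1* and *Itgb5* are shown because a peak lay within 1 kb of the start in every library and the window held a motif match. Those of *Itga8* and *Itga11* are shown because some libraries had no peak within 1 kb of the start. *Itga1* and *Itgb8* also had a start peak in every library, but no motif match, and are not printed. Capitals mark matches, on either strand, to the motifs searched. These were ATTAAA (an AT-rich motif of the ARID3A kind), TGANTCA (AP-1), GGAATG (TEAD), GGGCGG (GC box), CACGTG (E-box) and the CArG box bound by SRF.
Itga5 (chr15:103366742-103367041, minus strand): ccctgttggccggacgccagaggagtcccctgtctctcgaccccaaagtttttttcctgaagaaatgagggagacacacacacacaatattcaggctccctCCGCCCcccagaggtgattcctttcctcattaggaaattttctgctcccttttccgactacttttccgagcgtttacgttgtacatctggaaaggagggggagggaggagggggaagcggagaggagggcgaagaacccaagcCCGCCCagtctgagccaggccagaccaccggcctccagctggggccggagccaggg
Itgav (chr2:83724147-83724446, plus strand): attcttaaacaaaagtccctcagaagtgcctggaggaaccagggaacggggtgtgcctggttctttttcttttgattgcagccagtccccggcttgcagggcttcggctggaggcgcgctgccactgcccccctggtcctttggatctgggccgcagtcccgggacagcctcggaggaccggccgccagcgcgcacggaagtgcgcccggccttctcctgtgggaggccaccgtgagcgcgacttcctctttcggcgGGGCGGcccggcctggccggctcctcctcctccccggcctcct
Itgb5 (chr16:33829415-33829714, plus strand): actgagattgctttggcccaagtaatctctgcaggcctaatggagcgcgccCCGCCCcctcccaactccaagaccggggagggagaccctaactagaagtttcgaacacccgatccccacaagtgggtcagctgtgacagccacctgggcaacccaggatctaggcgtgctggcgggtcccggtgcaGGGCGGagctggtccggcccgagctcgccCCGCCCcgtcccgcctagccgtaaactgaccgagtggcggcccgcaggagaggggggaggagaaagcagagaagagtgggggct
Itgb1 (chr8:128685404-128685703, plus strand): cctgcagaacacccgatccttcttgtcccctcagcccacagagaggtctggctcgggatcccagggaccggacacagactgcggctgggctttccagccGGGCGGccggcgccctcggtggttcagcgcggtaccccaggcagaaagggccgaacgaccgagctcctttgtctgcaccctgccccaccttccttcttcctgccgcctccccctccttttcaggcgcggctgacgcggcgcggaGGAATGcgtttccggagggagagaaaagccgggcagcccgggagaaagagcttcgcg
Itga8 (chr2:12301895-12302194, minus strand): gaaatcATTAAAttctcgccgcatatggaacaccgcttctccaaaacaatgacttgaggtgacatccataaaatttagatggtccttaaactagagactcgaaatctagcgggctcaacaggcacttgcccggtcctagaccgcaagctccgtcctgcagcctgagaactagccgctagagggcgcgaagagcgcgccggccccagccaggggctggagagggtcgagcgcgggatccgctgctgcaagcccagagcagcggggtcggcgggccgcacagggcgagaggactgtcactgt
Itga11 (chr9:62677605-62677904, plus strand): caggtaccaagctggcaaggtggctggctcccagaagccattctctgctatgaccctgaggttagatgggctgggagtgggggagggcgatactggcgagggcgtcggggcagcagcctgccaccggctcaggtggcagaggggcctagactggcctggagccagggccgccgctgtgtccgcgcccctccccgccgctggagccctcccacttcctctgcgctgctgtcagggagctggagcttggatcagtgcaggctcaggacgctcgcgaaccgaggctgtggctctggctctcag

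Of the printed windows, *Itgb5* held 3 matches to GGGCGG, *Itga5* held 2, and *Itgav* and *Itgb1* held 1 each. *Itgb1* also held 1 match to GGAATG, in the bases just before the start. The only match to ATTAAA was in *Itga8*, near the far end of the window. *Itga1*, *Itga11* and *Itgb8* had no match to any of the 6. Over 21255 promoters of protein-coding genes, 46.2% held GGGCGG, 13.6% GGAATG, 11.7% ATTAAA, 7.84% CACGTG, 6.99% TGANTCA and 1.52% a CArG box. A match is a description of the letters and not a binding site.

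The depth of a library was read from its peak list, since the deposited fold and p-value at a summit together fix the number of fragments there and the local background. The lists held 43834, 50333 and 51682 peaks in siArid3a-labelled libraries 1 to 3, against 47789, 49653 and 50047 in NC-labelled libraries 1 to 3. The background coverage was 0.475, 0.482 and 0.538 fragments per base in the siArid3a-labelled libraries, against 0.670, 0.673 and 0.621 in the NC-labelled libraries. The groups thus differ in coverage, and its part in any difference of peak length or presence cannot be told apart from that of the siRNA. No library without the antibody was used here. Among defining genes with a promoter entry, *Acta2* and *Smtn* of smooth muscle had a peak within 1 kb of the start in every library, *Cnn1* in 1 siArid3a-labelled and 3 NC-labelled libraries, *Lmod1* in 0 and 1, and *Des* in none. No library had such a peak at *Ptprc*, *Cd3d* and *Itgam* of leukocytes or *Pdgfra* of fibroblasts. The endothelial genes *Tek* and *Kdr* had it in 2 and 0 siArid3a-labelled against 2 and 1 NC-labelled libraries. Peaks do not measure transcripts.

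Regions with a peak in every library were spread unevenly over the integrin genes, with 11 at *Itgb3*, 10 at *Itgb5* and 1 each at *Itga8* and *Itga11*. Of the 89 regions, 43 (48.3%) had a peak in all 6 libraries, 24 in 3 to 5 libraries, 7 in 2 and 15 (16.9%) in 1. The shares over all union regions were 37.3% for all 6 libraries and 30.2% for 1. These also count regions away from genes, since 56718 of the 79295 lay in the windows of protein-coding genes. Of the 89, 59 lay inside a gene, 7 across a gene end and 23 in a flank. Within the lists, the deposited fold at the summits of integrin peaks, which is the authors' value per peak, ranged over the libraries from 2.55 to 12.9, and the deposited −log10 q from 1.39 to 75.6. The median integrin peak had a fold of 5.41, 5.70 and 5.58 in the siArid3a-labelled libraries and of 5.12, 5.66 and 5.43 in the NC-labelled libraries. The medians over all peaks of the same lists were 5.87, 5.98 and 5.88, and 5.96, 6.01 and 5.81.

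**Figure D1:**
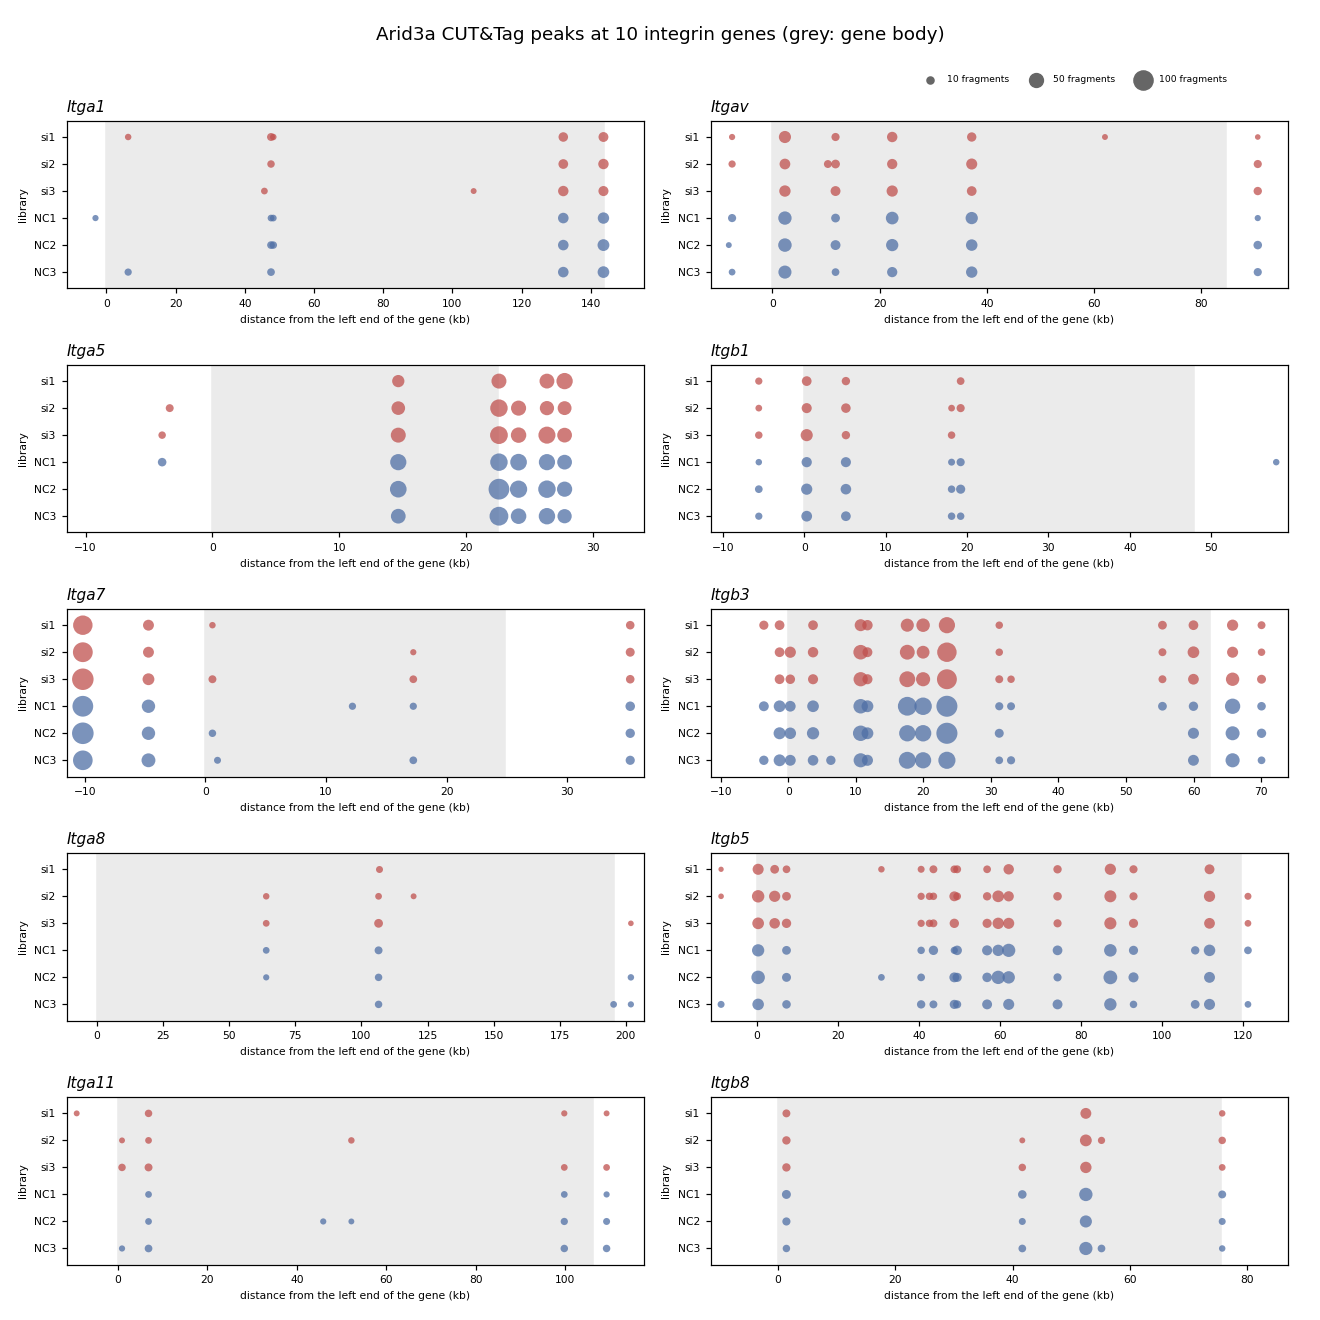
Peaks at each integrin gene by library. The x axis is the distance of a region's middle from the left end of the gene in kb, the rows are libraries (si1 to si3 siArid3a-labelled, red; NC1 to NC3 NC-labelled, blue), the point area grows with the fragments at the summit, and grey marks the gene body. At *Itgb3* 11 and at *Itgb5* 10 columns of points run through all rows, while *Itga8* and *Itga11* have 1 region each with a peak in all 6 libraries.

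*Itgb3* and *Itgb5* had the most regions. The beta 3 chain pairs with alpha V to form a receptor for vitronectin and osteopontin, and the beta 5 chain pairs with alpha V in another vitronectin receptor. *Itgb5* had 19 regions and *Itgb3* had 16, against 5 to 9 at the other genes. A peak in all 6 libraries was present at 11 of the 16 regions of *Itgb3*, or 13.3 per 100 kb of its window, which is percentile 98.5 of the protein-coding genes (median 1.94 per 100 kb). The other genes in order of this density were *Itga5* (9.41, percentile 94.9), *Itgb5* (7.16, percentile 88.4), *Itga7* (6.69, percentile 86.9), *Itgav* (4.78, percentile 79.4), *Itgb1* (4.42, percentile 76.3), *Itgb8* (3.14, percentile 63.2), *Itga1* (1.22, percentile 43.2), *Itga11* (0.793, percentile 40.1) and *Itga8* (0.464, percentile 38.5). The last 3, whose products pair with beta 1 as receptors for collagens (alpha 1 and alpha 11) and for RGD ligands such as nephronectin (alpha 8), have windows of 164, 126 and 215 kb. The window of *Itgb5*, at 140 kb, is longer than that of *Itga11*. The density includes the flanks, and at *Itga7* every region counted was a flank region. Some regions counted also overlapped other genes: *Bloc1s1* (*Itga7* window, from 128922770), *Fam171b* (*Itgav* window, from 83812470) and *Pelo* (*Itga1* window, from 115089443).

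**Figure D2:**
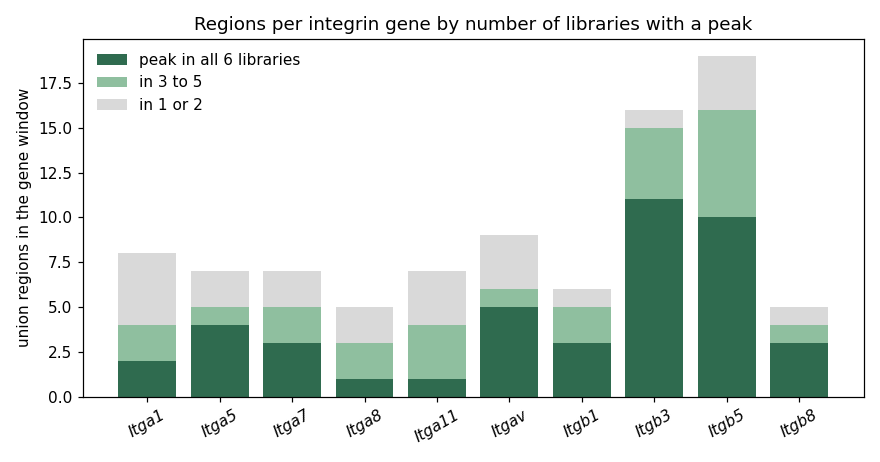
Number of union regions in the window of each integrin gene. Bars are split by the number of libraries with a peak; *Itgb3* has 11 regions and *Itgb5* has 10 with a peak in all 6 libraries, *Itga8* and *Itga11* have 1.

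At 6 of the 8 genes with an annotated start, every library had a peak within 1 kb of it (46.0% of 17492 protein-coding genes with a promoter entry did). By fragments at the summit, the highest was at *Itga5*, the chain that pairs with beta 1 as the main fibronectin receptor, in a region on chromosome 15 from 103366537 to 103367188. Its summit held 60, 83 and 86 fragments in siArid3a-labelled libraries 1 to 3, against 83, 119 and 97 in NC-labelled libraries 1 to 3. The summits lay 49 bp downstream of the start in 3 libraries, at the last base of the printed window, and 57 bp downstream in the other 3, just outside it. After scaling for depth the values were 83.6 ± 9.49 and 89.4 ± 14.0 fragments (SD, n = 3 each), a log2 difference of -0.09 ± 0.12 (SE; 95% interval -0.34 to 0.16; adjusted p = 0.840 by limma over all shared regions).

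At *Itgav*, which encodes the alpha chain shared by the receptors with beta 3, beta 5 and beta 8, the start region (chromosome 2, 83723769 to 83725563) held 38, 29 and 33 fragments in the siArid3a-labelled libraries and 47, 48 and 45 in the NC-labelled libraries. The unscaled counts do not overlap, but the scaled counts do, at 37.1 ± 7.87 and 41.9 ± 0.648 (SD, n = 3 each; log2 difference -0.19 ± 0.16 SE, limma adjusted p = 0.706). Summits lay 17 to 86 bp downstream of the start.

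At *Itgb5* the start region (chromosome 16, 33829327 to 33830521) held 31, 40 and 35 fragments in the siArid3a-labelled libraries and 39, 48 and 34 in the NC-labelled libraries. The groups overlap. In siArid3a-labelled library 1 the summit lay at -13 bp from the start (negative values are before it). In the other 5 libraries it lay at -62 to -56 bp, inside the middle GGGCGG match of the printed window (-63 to -58) in 4 of them and just after it in NC-labelled library 2. The scaled values were 38.9 ± 4.27 and 36.1 ± 4.67 (SD, n = 3 each; log2 difference 0.11 ± 0.16 SE, limma adjusted p = 0.861).

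*Itgb1* encodes the beta chain with the largest number of alpha partners. Its start region (chromosome 8, 128685143 to 128686787) held 23, 25 and 38 fragments in the siArid3a-labelled libraries and 26, 32 and 29 in the NC-labelled libraries, which overlap. Unlike at *Itga5*, the summit moved between libraries, between -308 and 549 bp from the start. The scaled log2 difference was 0.24 ± 0.18 (SE; 95% interval -0.13 to 0.61; limma adjusted p = 0.665).

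By the deposited fold, *Itga1*, a collagen and laminin receptor chain of smooth muscle, had the highest start of the 6 in every library, at 9.21, 9.36 and 8.51 in the siArid3a-labelled and 10.8, 10.8 and 11.99 in the NC-labelled libraries. Its start region (chromosome 13, 115101322 to 115102186) held 24, 27 and 25 fragments in the siArid3a-labelled libraries and 33, 36 and 35 in the NC-labelled libraries. Every siArid3a-labelled value was lower, also after scaling (28.0 ± 2.30 and 31.2 ± 1.74, SD, n = 3 each), but the log2 difference of -0.15 ± 0.18 (SE) did not pass the test (limma adjusted p = 0.806). *Itgb8* had the weakest start region of the 6 (chromosome 12, 119238227 to 119238903), with 8, 12 and 9 against 14, 10 and 8 fragments in the siArid3a-labelled and NC-labelled libraries, and its summits lay at -456 to -83 bp. Its log2 difference was 0.15 ± 0.25 (SE, limma adjusted p = 0.875).

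**Figure D3:**
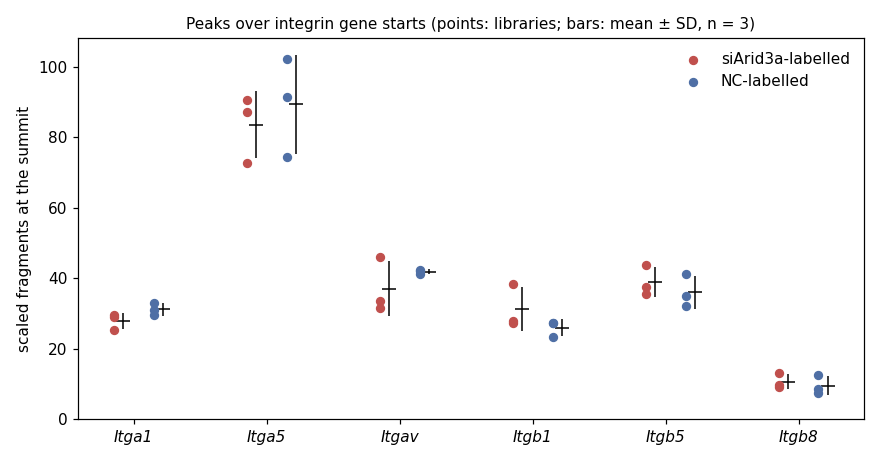
Depth-scaled fragments at the summit in the start regions of 6 integrin genes (y axis from 0; points are libraries, siArid3a-labelled red and left, NC-labelled blue and right; bars are mean ± SD, n = 3). *Itga5* stands highest in both groups (83.6 and 89.4) and *Itgb8* lowest (10.7 and 9.56).

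*Itga8* and *Itga11* had a start peak in 1 and 3 of the 6 libraries. At *Itga8* only NC-labelled library 3 had one, with 9 fragments and a deposited −log10 q of 5.39. At *Itga11* a region 570 bp downstream of the start (chromosome 9, 62678425 to 62679083) had a peak in siArid3a-labelled libraries 2 and 3 and NC-labelled library 3, with 6, 12 and 7 fragments. The summits lay 1064, 1070 and 942 bp downstream of the start, past the printed window, and the peaks were counted by their nearest edge. G and C made up 59.0% of the *Itga8* and 68.0% of the *Itga11* window, beside 56.7% to 67.3% at the 6 genes with a start peak in all libraries. With only the first listed promoter window of each protein-coding gene counted (above, any listed start of a gene could hold the peak), a start peak in all 6 libraries was found for 69.4% of those with at least 60% G and C, 45.8% of those with 50 to 60% and 12.1% of those below.

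Regions were ranked by their lowest percentile of the deposited −log10 q over the 6 lists. By this rank, the highest region of several genes lay away from the start. In *Itgb3* the highest region was inside the gene (chromosome 11, 104631220 to 104631760), with 71, 104 and 109 fragments in the siArid3a-labelled libraries and 122, 123 and 80 in the NC-labelled libraries. Its deposited −log10 q stood at percentile 92.2 to 97.9 of the 6 lists, and the log2 difference was 0.10 ± 0.12 (SE, limma adjusted p = 0.810). The region across the left end of *Itgb3* (104607799 to 104608807) had no peak in siArid3a-labelled library 1, 32 and 22 fragments in siArid3a-labelled libraries 2 and 3, and 29, 34 and 30 in the NC-labelled libraries. For *Itgb3* and *Itga7* no strand or start was used here.

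*Itga7* encodes a laminin receptor chain of muscle. The highest region of its window (chromosome 10, 128922770 to 128923766) held 104, 108 and 128 fragments in the siArid3a-labelled libraries and 119, 129 and 106 in the NC-labelled libraries. It reached into the flank only in part, since its middle lay at -10.2 kb from the left end of the gene, outside the window. It overlapped the neighbouring gene *Bloc1s1* and was within 1 kb of the start of that gene. A second flank region (128928367 to 128929052) held 30, 30 and 36 fragments against 47, 47 and 51 in the NC-labelled libraries. Inside the *Itga7* body no region had a peak in every library, and summits there held 7 to 14 fragments.

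Other regions with the highest ranks were inside *Itgb5* (chromosome 16, 33916572 to 33917345), with 32, 37 and 38 fragments in the siArid3a-labelled and 41, 50 and 40 in the NC-labelled libraries, and inside *Itgb8* (chromosome 12, 119214956 to 119215665), with 30, 36 and 33 against 47, 38 and 46. After scaling, the log2 differences of these were 0.01 ± 0.16 and -0.10 ± 0.16 (SE, limma adjusted p = 0.993 and 0.871). A region inside *Itgav* (chromosome 2, 83744416 to 83744902) held 27, 26 and 32 fragments in the siArid3a-labelled libraries and 42, 39 and 26 in the NC-labelled libraries. In each library these were fewer than at the *Itgav* start region, which ranked lower by −log10 q. The regions with a peak in every library inside *Itga8* (12212662 to 12213572) and *Itga11* (62684299 to 62685068) were weak in both groups. They held 10, 9 and 18 against 14, 12 and 12 fragments, and 12, 9 and 14 against 9, 9 and 13, in siArid3a-labelled and NC-labelled libraries. In *Itga1* the second region with a peak in all libraries (115089443 to 115090848) overlapped *Pelo*, a gene within *Itga1*, less than 1 kb from the start of that gene, and held 22, 23 and 27 against 28, 28 and 28 fragments.

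The second flank region of *Itga7*, the *Pelo* region, the left end of *Itgb3* and the *Itga5*, *Itga7* and *Itgb3* regions of the next paragraphs outside the start were picked after their values were seen. Around *Itga5* the coverage was raised over several kb. Upstream of its start, regions at 103368137, 103370380 and 103371810 had summits of 51 to 83 fragments, and a region inside the gene (103358370 to 103359487) had 39, 49 and 60 against 71, 75 and 58. The median local background under *Itga5* peaks was 10.5, 11.2 and 11.7 fragments in the siArid3a-labelled and 15.4, 19.0 and 17.1 in the NC-labelled libraries. Over all peaks of these lists it was 1.69, 1.60 and 1.71, and 2.26, 2.24 and 1.99. *Itgb3* was next, at 4.64, 5.50 and 6.15 against 7.57, 7.97 and 7.63. The deposited fold is taken over this background, and at the *Itga5* start it was 4.99, 6.16 and 6.17 in the siArid3a-labelled against 4.69, 5.99 and 5.41 in the NC-labelled libraries. The region 1346 bp upstream of the start had a peak in every library but siArid3a-labelled library 1, at a fold of 3.33 to 4.13 in the other 5.

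The groups were compared to see whether integrin genes held fewer Arid3a peaks under the siRNAs. Integrin peaks were equally many on average, and their summed length was lower in the siArid3a-labelled libraries. Their number was 62, 67 and 67 in the siArid3a-labelled and 67, 61 and 68 in the NC-labelled libraries (65.3 ± 2.89 and 65.3 ± 3.79, SD, n = 3 each; two-sided exact permutation p = 1). Their summed length was, library by library, 30.3, 31.6 and 31.9 kb against 37.6, 35.3 and 36.2 kb (31.3 ± 0.831 and 36.3 ± 1.20 kb, SD, n = 3 each; exact permutation p = 0.1, the smallest that 3 against 3 libraries allow). All lists of that group were shorter in covered length, and as a share of it the integrin windows took 0.1346%, 0.1345% and 0.1254% in the siArid3a-labelled and 0.1373%, 0.1271% and 0.1315% in the NC-labelled libraries (difference of -0.000503 percentage points, exact permutation p = 1). By gene, the covered length of all siArid3a-labelled libraries lay below all NC-labelled libraries at *Itga5*, *Itgav* and *Itgb8* (3 of 10) and above them at 0 of 10, against 13.6% and 0.941% of the 21887 protein-coding genes.

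**Figure D4:**
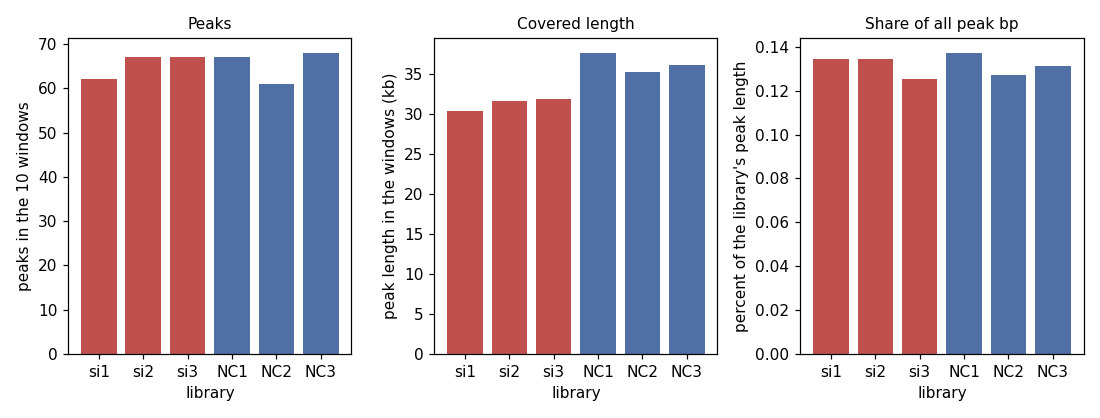
Integrin peaks per library: number, summed length in kb and share of the library's whole peak length in percent (si1 to si3 siArid3a-labelled, red; NC1 to NC3 NC-labelled, blue; all axes from 0). The summed length is lower in all siArid3a-labelled libraries (30.3 to 31.9 against 35.3 to 37.6 kb), while the number and the share overlap.

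No integrin region with a peak in every library passed the test of a change in fragments. The other integrin regions were not tested, so a difference that removed the peak from a library could not show in it. Of the 43 with a peak in every library, 0 were lower and 0 were higher at a limma adjusted p under 0.05, against 0.125% and 0.0912% of all 29602 such regions. At an unadjusted p under 0.05 there were 2 lower and 2 higher, where the shares over all regions were 5.90% and 5.43%. The log2 differences of the 43 ran from -0.36 to 0.43 with a median of 0.04 (0.00 over all regions), and 19 of 43 (44.2%) were below 0, against 50.1% overall. The median SE of the 43 differences was 0.18. Scaling by median ratios over all shared regions sets their median near 0, so a change common to most of them would not show here. Over all regions the median log2 difference was -0.29 without scaling and 0.094 with scaling by background coverage. The scaled values of the siArid3a-labelled libraries lay below all NC-labelled ones at 4 regions and above them at 2, or 9.30% and 4.65%, beside 8.12% and 7.70% over all regions.

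The lowest log2 difference was at a region inside *Itgb3* (104627669 to 104628261), with 48, 43 and 53 fragments in the siArid3a-labelled and 83, 73 and 71 in the NC-labelled libraries. Scaled for depth this was 53.0 ± 5.66 and 68.0 ± 5.92 (SD, n = 3 each), a log2 difference of -0.36 ± 0.14 (SE; limma adjusted p = 0.275). The other regions with every siArid3a-labelled value below were in the flanks of *Itgb3* (104606430 to 104607006; log2 difference -0.34 ± 0.18, adjusted p = 0.478) and *Itga7* (128928367 to 128929052; -0.30 ± 0.16, adjusted p = 0.487), beside the *Itga1* start. Every siArid3a-labelled value was above at the *Itga5* flank region from 103371810 (87.4, 55.7 and 58.8 against 52.0, 53.2 and 51.0 scaled fragments; log2 difference 0.34 ± 0.14, adjusted p = 0.349). The same held at the region over *Bloc1s1*, which is only partly inside the *Itga7* window (126, 118 and 130 against 107, 111 and 100; 0.23 ± 0.10, limma adjusted p = 0.366).

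**Figure D5:**
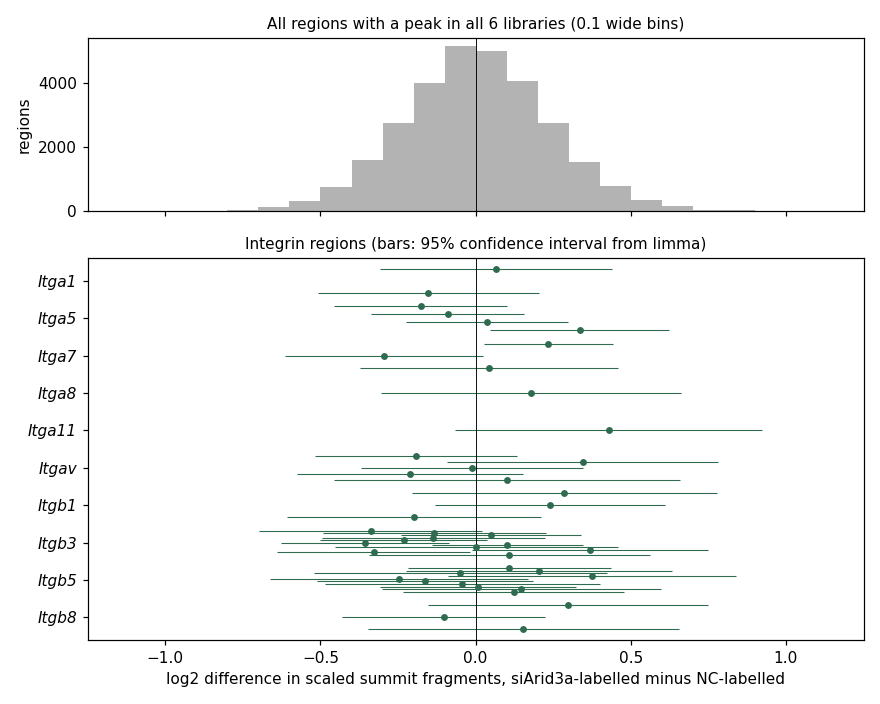
Log2 difference in scaled summit fragments, siArid3a-labelled minus NC-labelled. The upper plot counts all 29602 regions with a peak in every library in bins of 0.1; the lower one shows the 43 integrin regions by gene with 95% confidence intervals. The integrin values lie between -0.36 and 0.43.

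Presence differed fully between the groups at 1 integrin region. A region inside *Itgb5* (chromosome 16, 33833843 to 33834170), 4178 bp downstream of its start, had a peak in the 3 siArid3a-labelled libraries, with 18, 32 and 28 fragments, and in none of the NC-labelled libraries. The deposited −log10 q was 4.85, 12.6 and 8.67, or percentile 28.3, 66.0 and 52.0 of each list, and the local background there was 3.98, 5.21 and 5.76 fragments. The reverse was found at 0 integrin regions. Over all union regions, 0.342% had a peak in the siArid3a-labelled libraries only and 0.608% in the NC-labelled libraries only, so 1 of 89 is near the background. In *Itgb3*, a region from 104663130 to 104663670 had a peak in all siArid3a-labelled libraries (18, 14 and 14 fragments) and in NC-labelled library 1 (18 fragments).

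Other genes of integrin adhesion were taken from 3 fixed lists. Among 17 other integrin genes, 11 had a promoter entry, and a start peak in all 6 libraries was found at *Itga2*, a collagen receptor chain, and *Itgb7*, a chain of lymphocyte integrins. *Itgb6* had one in 0 siArid3a-labelled and 2 NC-labelled libraries, and 5 of the 11 had none in any library. Over all 17492 protein-coding genes with a promoter entry, 46.0% had a start peak in all 6 libraries and 42.5% in none. Among 10 ligand genes with an entry, *Lama5*, *Tnc* and *Fbn1* had a start peak in every library, and *Col4a1*, a basement membrane collagen, had it in 3 siArid3a-labelled against 1 NC-labelled library. Differences like those at *Itgb6* and *Col4a1* were not counted over all genes. Of 12 genes of adaptors and kinases at the integrin tail with an entry, 9 had a start peak in all 6 libraries: *Tln1*, *Fermt2*, *Ilk*, *Lims1*, *Src*, *Vcl*, *Zyx*, *Bcar1* and *Itgb1bp1*, which encode talin, kindlin 2, the linker kinase and its partner PINCH, and further parts of the adhesion. Of the shared regions in the windows of these lists (36, 56 and 69), 0 were lower and 0 were higher at a limma adjusted p under 0.05. Over all 29602 shared regions the shares were 0.125% and 0.0912%, so counts of 0 are near the background. Of the 81 regions at other integrins, 0 had a peak in 1 group only. Of the 135 at ligands and the 151 at adaptors and kinases, 1 each was siArid3a-only and 1 each NC-only, beside 0.342% and 0.608% over all union regions.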

How the data were processed

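Arid3a CUT&Tag libraries of mouse VSMCs, 3 siArid3a-labelled and 3 NC-labelled, were analysed from 1 peak list per library. Per the submitters' processing notes, Bowtie2, Picard and MACS2 were used with mm10; for versions, nothing stands in the sources used here. Per peak, the authors deposited an integer score (not used), a fold over local background (a ratio), and p-value and q-value as −log10.

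From fold and p-value, whole fragments and local background at each summit were solved (relative tolerance 0.002). Peaks were merged over libraries (1 bp), and log2 (scaled fragments + 1) was fitted with limma 3.58.1 (trend) over all regions with a peak in every library, scaled by median ratios, with Benjamini-Hochberg adjustment. Intervals cover 95%. The fit and the solver were run on simulated data. The solver's data were made with its own formula. The fit's data were Poisson counts with log2 changes of 1 and no added spread between libraries. Smaller changes, such as those of the integrin regions, were not simulated. Totals were compared by exact permutation. Genes came from RefSeq, without exons. Named regions follow a rule: for each member its start region, its highest-ranked region, any one-sided region and any called one. Members and lists were chosen with earlier results of these data known. Regions outside that rule are named as picked afterwards. siArid3a-labelled libraries 2 and 3 were kept apart: 0.570% of their peaks had identical ends, within the 0.423% to 0.628% of the other pairs.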

Additional observations from a re-analysis of the deposited data

How the results depend on the processing

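No integrin region with a peak in every library passed the limma test under any alternative but 1. Without scaling for depth 5 of 43 were lower, beside 3008 of all 29602 regions, with the median of all regions at -0.29, so the 5 are near the background. The summed length differed by -5.61 to -4.42 kb and the peak number by -2.17 to 1.67 without any 1 library. The share of covered length, a difference of -0.000503 percentage points, turned to 7.83e-05 with peaks of −log10 q of at least 5 and to 0.00027 with siArid3a-labelled libraries 2 and 3 as 1 sample. It ran from -0.00293 to 0.00256 without any 1 library, above 0 without siArid3a-labelled library 3 and without NC-labelled library 1 (0.00216). Regions in 1 group only numbered 0 with peaks of −log10 q of at least 5, since the *Itgb5* peak of siArid3a-labelled library 1 is below it. They numbered 1 to 2 without any 1 library: 2 without siArid3a-labelled library 1, NC-labelled library 1 or NC-labelled library 2 (2.47%, 2.27% and 2.18% of all regions, against 0.950% with every library). Without NC-labelled library 2, 1 of the 2 was NC-only.

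Some log2 differences changed sign, the largest of them 0.18 inside *Itga8*, and the cause was not tested. With scaling by background coverage, the *Itga5* start moved to 0.0076 and the inner *Itgav* region to 0.084. Without any 1 library the range was -0.22 to 0.011 at the *Itga5* start, -0.18 to 0.11 inside *Itgav*, -0.036 to 0.074 inside *Itgb5*, -0.051 to 0.37 inside *Itga8* and -0.067 to 0.23 inside *Itgb3*. Other log2 differences kept their sign but moved by over 1.5 times: 0.009 to 0.35 at the *Itgb8* start, 0.085 to 0.33 at the *Itgb1* start, -0.36 to -0.091 at the *Itgav* start, 0.026 to 0.21 at the *Itgb5* start, -0.19 to -0.084 at the *Itga1* start and -0.23 to -0.03 inside *Itgb8*.

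Same-numbered libraries did not deviate together (correlations of 0.040, 0.032 and -0.021), so the numbers were not taken as pairs. With a replicate block, 0 integrin regions passed, and the differences were 0 peaks, -5.06 kb and -0.000503 percentage points. A median of 16 to 20 fragments at a summit limits what could be detected.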
